A study of Mus musculus with 10 samples.

Results

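The insulin-like growth factor (IGF) system was described here through 10 genes, 2 ligands (Igf1, Igf2), 2 receptors (Igf1r, Igf2r) and 6 binding proteins (Igfbp2 to Igfbp7). They were taken by gene symbol from a table of 56748 genes. Each of the 10 symbols matched 1 entry, and 9 of the 10 genes were among the 14270 that had enough counts to be tested. RNA-seq covered primary adipocytes made in culture from the stromal vascular fraction (SVF) of inguinal fat, which holds the precursor, vascular and immune cells of the depot. Control cultures carried the Fam20c-flox genotype (5 libraries), and KO cultures were Fam20c-flox/Adipoq-Cre (5 libraries), so the floxed allele was present in every culture. The methods describe male mice of 6 to 8 weeks, a floxed line backcrossed to C57BL/6J with controls of the same backcross generation, and 6 to 8 days of adipogenic differentiation with 3-isobutyl-1-methylxanthine, dexamethasone, insulin and rosiglitazone. Adipoq-Cre acts in cells that express adiponectin, so cells of the culture that had not become adipocytes are expected to keep an intact Fam20c gene. The labels do not say whether the libraries of a group came from separate mice, and p-values therefore measure the spread between these libraries.

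IGF1 and IGF2 are small secreted hormones that activate the IGF1 receptor, a tyrosine kinase closely related to the insulin receptor, while the IGF2 receptor carries IGF2 and mannose phosphate-tagged enzymes to lysosomes and does not signal as a kinase. Secreted binding proteins hold the ligands, limit or prolong their access to the receptor, and are cut by proteases that set the ligands free, and IGFBP7 binds IGFs weakly. In fat, IGF1 is made locally and acts on precursor growth and adipogenic differentiation. RNA counts measure neither the secreted proteins nor their phosphorylation.

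Total counts ranged from 18949106 to 26237825 in control libraries and from 19883101 to 23291792 in KO libraries. On the first principal component of log2 CPM, which held 23.5% of the variance, control library 4 (21.7) and KO library 1 (24.2) stood apart from the other libraries, which lay between -14.8 and 8.59. Results are therefore given with all 10 libraries and, where they rest on these libraries, without them. CPM relate each count to the TMM-adjusted total of its own library. Log2 fold changes are KO minus control and were tested with edgeR's quasi-likelihood test, with p-values adjusted by Benjamini-Hochberg over all 14270 genes and a limit of 0.05. Exact 2-sided permutation tests of a single gene used mean log2 CPM, and 5 libraries against 5 allow no p below 0.00794.

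Fam20c (ENSMUSG00000025854.16, chromosome 5, 138754514 to 138810077, plus strand, GRCm38), the targeted gene, encodes a kinase of the secretory pathway. It was counted at 8.86, 10.3, 11.9, 9.09 and 11.2 CPM in control 1 to 5, compared with 6.65, 7.29, 7.11, 7.70 and 7.74 CPM in KO 1 to 5. Every KO library lay below every control library, and Fam20c fell by 0.49 on the log2 scale (SE 0.093, edgeR adjusted p = 0.0137), from 10.2 ± 1.29 to 7.30 ± 0.449 CPM (SD, n = 5 each). Whole-gene counts were used, in which reads of the floxed exons are pooled with all others.

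Of the 9 IGF genes tested, 1 passed the limit, Igfbp5, which was lower in KO cultures. Across all genes tested, 265 (1.86%) were lower and 44 (0.308%) were higher. The count of higher genes varied, at 119 without control 4, 23 without control 1, KO 2 or KO 5, 24 without control 3 or KO 4, 19 without control 5 and 29 without KO 3. It was 145 without control 4 and KO 1, 125 with DESeq2, 111 with limma voom and 21 with a replicate block. The count of lower genes was 164 without KO 2 and 171 without KO 5. Igfbp5 was also the 1 gene of the 9 whose libraries did not overlap between groups, while 567 of the 14270 genes (3.97%) did not overlap. By estimate, 6 of the 9 genes were lower and 3 higher, with a median log2 fold change of -0.12, beside 7179 lower and 7091 higher among all genes tested and a median of -0.00085. At an unadjusted p under 0.05, 3 of the 9 genes and 1697 of all 14270 genes tested passed in edgeR. With DESeq2 and with limma voom, 2 of the 9 genes passed the adjusted limit as lower, the second being Igfbp6, beside 359 (2.52%) and 347 (2.43%) lower among all 14270 genes. The same 2 members passed in edgeR without a filter on low counts (286 of 27306 genes lower, 1.05%), without control 4 (323 of 14383, 2.25%) and without control 4 and KO 1 (353 of 14340, 2.46%).

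**Figure D1:**
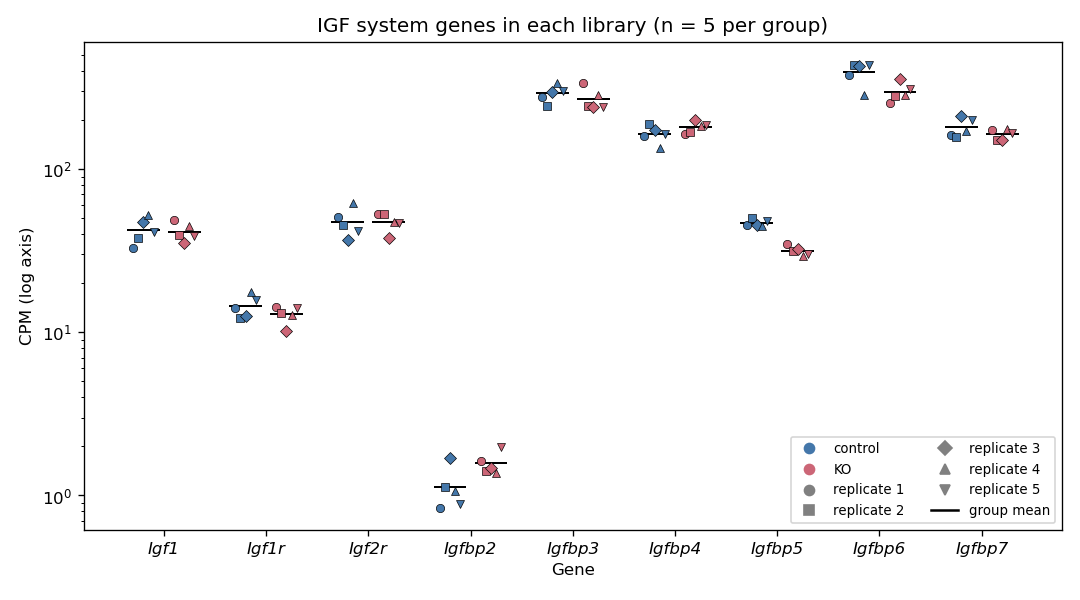
CPM of the 9 tested IGF genes on a log axis in each library, with control in blue, KO in red, a marker shape for each replicate number and a bar at each group mean. The 5 KO libraries of Igfbp5 lie between 29.4 and 34.6 CPM, below the 5 control libraries at 44.7 to 49.8 CPM, and the groups overlap for the other 8 genes.

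Among the ligands, Igf1 (ENSMUSG00000020053.19, chromosome 10, 87858265 to 87937042, plus strand) was well detected. It was counted at 32.9, 37.7, 47.2, 52.6 and 41.4 CPM in control 1 to 5, compared with 48.9, 39.5, 35.1, 44.6 and 38.8 CPM in KO 1 to 5. All 5 KO libraries lay within the control range, and the highest library was control 4 in the control group and KO 1 in the KO group. Control averaged 42.4 ± 7.73 CPM and KO 41.4 ± 5.39 CPM (SD, n = 5 each). The log2 fold change of -0.03 (SE 0.120, edgeR adjusted p = 0.962) was smaller than its error. Its sign turned without control 3 (0.01), without control 4 (0.057) and without KO 3 (0.022). Igf1os lies on the opposite strand within the same region. Since the strand setting of the counting was not given, reads of overlapping genes cannot be told apart.

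Igf2 (ENSMUSG00000048583.17, chromosome 7, 142650766 to 142666816, minus strand) was close to the detection floor. It had 2 counts in control library 2, 1 count in KO library 1, 1 count in KO library 5 and 0 counts in each of the other libraries. No library exceeded 3 counts, the level that a count of 0 still allows, which corresponds to 0.112 to 0.157 CPM at these depths and covers counting error only. Igf2 overlaps Gm49394 and Mir483 on its own strand and Igf2os on the opposite strand. Igf2 was not tested, and no difference between the groups was detectable at this depth. Ligand RNA in these cultures was thus almost entirely Igf1, at 4.28 ± 0.780 CPM per kb of merged exons in control (SD, n = 5) against 0.0026 ± 0.0059 CPM per kb for Igf2.

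The receptors did not pass the limit. Igf1r (ENSMUSG00000005533.11, chromosome 7, 67952827 to 68233668, plus strand) was counted at 14.1, 12.2, 12.6, 17.6 and 15.8 CPM in control 1 to 5, compared with 14.3, 13.2, 10.2, 12.7 and 14.0 CPM in KO 1 to 5. KO library 3 was below every control library and the other 4 KO libraries were within the control range (log2 fold change -0.17, SE 0.116, edgeR adjusted p = 0.662). The estimate for Igf1r was -0.084 without control 4 and -0.087 without KO 3. Igf2r (ENSMUSG00000023830.15, chromosome 17, 12682406 to 12769664, minus strand) was counted at 50.7, 45.4, 37.0, 62.4 and 41.8 CPM in control 1 to 5, compared with 53.2, 53.3, 37.6, 47.4 and 47.1 CPM in KO 1 to 5. Every KO library of Igf2r lay within the control range, and the log2 fold change of 0.01 (SE 0.130, edgeR adjusted p = 0.993) was smaller than its error. Its sign turned without control 2 (-0.0065), control 3 (-0.065), control 5 (-0.033), KO 1 (-0.031) or KO 2 (-0.028). Igf2r overlaps the antisense transcript Airn, which averaged 0.845 ± 0.233 CPM for control and 0.750 ± 0.0910 CPM for KO (SD, n = 5 each).

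Per kb of merged exons, Igf2r exceeded Igf1r in every library, by a ratio of 4.77 to 6.72 in control and of 6.07 to 7.29 in KO cultures. The insulin receptor gene Insr, whose product shares downstream signalling with the IGF1 receptor, exceeded Igf1r by a ratio of 11.1 to 16.4 in control and of 12.6 to 17.2 in KO libraries, again in CPM per kb. These ratios overlapped between the groups. Merged exon length covers all annotated transcripts, so a level per kb is too low for a gene that uses a short transcript. Lengths are those of GENCODE M21, which lacks 4675 of the 56748 gene identifiers in the count table, so lengths in the annotation used for counting could differ.

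Igfbp5 (ENSMUSG00000026185.9, chromosome 1, 72857932 to 72874884, minus strand) encodes a binding protein that also attaches to extracellular matrix. It was counted at 45.6, 49.8, 45.4, 44.7 and 48.2 CPM in control 1 to 5, compared with 34.6, 31.4, 32.3, 29.4 and 30.2 CPM in KO 1 to 5. The lowest control library was above the highest KO library by more than the SD of either group, and these rest on 594 to 1329 counts per library. Control averaged 46.8 ± 2.16 CPM and KO 31.6 ± 2.04 CPM (SD, n = 5 each). Igfbp5 fell to 0.675 of the control level, a log2 fold change of -0.57 (SE 0.053, edgeR adjusted p = 9.43e-05), lower in 5 of 5 KO libraries (2-sided exact permutation test, p = 0.00794, the smallest this design allows). It ranked 18 by p among the genes tested. Without control 4 and KO 1, the log2 fold change was -0.62 (edgeR adjusted p = 5.94e-05), and over all alternatives the adjusted p ran from 6.11e-17 to 0.00204. With each library left out in turn it stayed between -0.60 and -0.54, and Igfbp5 passed the limit in all 10 of these fits.

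Igfbp6 (ENSMUSG00000023046.7, chromosome 15, 102144362 to 102149511, plus strand) encodes a binding protein that prefers IGF2. It was counted at 376, 437, 429, 285 and 433 CPM in control 1 to 5, compared with 255, 279, 358, 285 and 308 CPM in KO 1 to 5. Control library 4 lay among the KO libraries, and the other 4 control libraries were above all 5 KO libraries. Control averaged 392 ± 65.0 CPM and KO 297 ± 39.0 CPM (SD, n = 5 each), a log2 fold change of -0.40 (SE 0.116, edgeR adjusted p = 0.126, and 2-sided exact permutation test, p = 0.0397). The call depended on control 4. Leaving out this library gave -0.49 (edgeR adjusted p = 0.00698), and leaving out control 4 and KO 1 gave -0.44 (edgeR adjusted p = 0.00841). With all 10 libraries, DESeq2 gave an adjusted p of 0.0404 and limma voom with quality weights gave 0.0204, edgeR without a filter on low counts gave 0.0460, and over all alternatives the adjusted p ran from 0.00698 to 0.308.

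Igfbp2 (ENSMUSG00000039323.19, chromosome 1, 72824503 to 72852474, plus strand) lies next to Igfbp5 and was the weakest in RNA of the binding proteins among the members. It was counted at 0.839, 1.12, 1.69, 1.06 and 0.888 CPM in control 1 to 5, compared with 1.64, 1.41, 1.48, 1.37 and 1.98 CPM in KO 1 to 5. Control library 3 reached into the KO range, and the other 4 control libraries were below all 5 KO libraries. These values rest on 16 to 39 counts per library. The log2 fold change of 0.48 (SE 0.202) did not pass the limit (edgeR adjusted p = 0.354), and the exact permutation test, 2-sided and not adjusted, gave p = 0.0397. Igfbp2 and Igfbp5 point towards each other with 5.46 kb between their ends, and their estimates had opposite signs.

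Igfbp3, Igfbp4 and Igfbp7 were abundant and did not pass the limit. Igfbp3 (ENSMUSG00000020427.12, chromosome 11, 7206086 to 7213923, minus strand) encodes the main carrier of IGFs in serum and had 243 to 339.6 CPM across control and 239 to 335 CPM across KO libraries (log2 fold change -0.12, SE 0.103, edgeR adjusted p = 0.755). Its neighbour Igfbp1, 3.54 kb away, had 0 counts in all 10 libraries. Igfbp4 (ENSMUSG00000017493.13, chromosome 11, 99041244 to 99054392, plus strand), which encodes the main substrate of the protease PAPP-A, had 134 to 189 CPM in control and 164 to 200.02 CPM in KO libraries (log2 fold change 0.14, SE 0.082, edgeR adjusted p = 0.572). Igfbp7 (ENSMUSG00000036256.14, chromosome 5, 77349240 to 77408041, minus strand), whose product lies in the vascular basement membrane, had 157 to 210.2 CPM in control and 151 to 175 CPM in KO libraries (log2 fold change -0.14, SE 0.083, edgeR adjusted p = 0.565). For each of these genes the groups overlapped. With 1 library left out, the estimates ran from -0.21 (without KO 1) to -0.052 (without control 4) for Igfbp3, from 0.076 (without control 4) to 0.19 (without control 2) for Igfbp4 and from -0.19 (without control 2) to -0.078 (without control 3) for Igfbp7. Igfbp7 overlaps Polr2b and Gm34648 on the opposite strand.

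**Figure D2:**
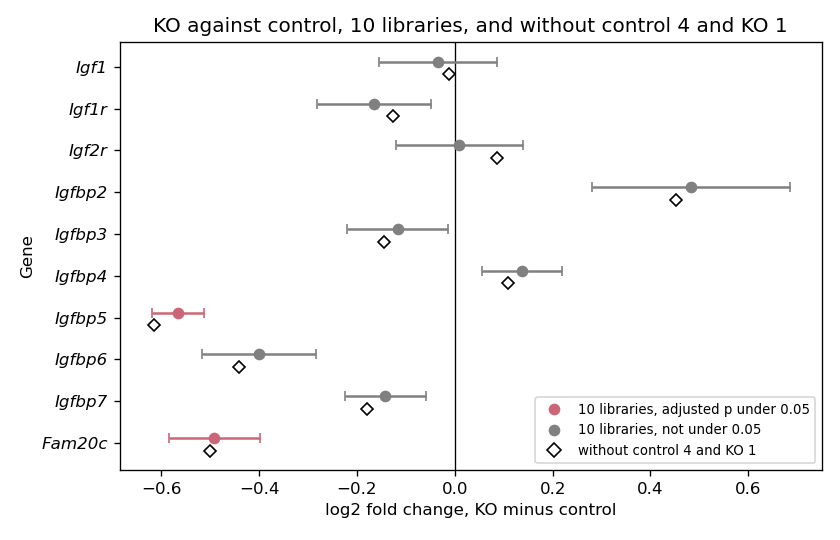
Log2 fold changes of the 9 tested IGF genes and Fam20c, KO minus control, with bars of 1 standard error for the fit to 10 libraries and open diamonds for the fit without control 4 and KO 1. Igfbp5 at -0.57 and Fam20c at -0.49 passed the adjusted limit, and leaving out these libraries changed no sign among the points shown.

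In control cultures the order of levels per kb of merged exons was Igfbp6 (352 ± 58.4 CPM per kb), Igfbp7 (149 ± 19.99), Igfbp3 (93.0 ± 11.4), Igfbp4 (37.3 ± 4.57), Igfbp5 (7.79 ± 0.360), Igf2r (5.10 ± 1.05), Igf1 (4.28 ± 0.780), Igf1r (0.860 ± 0.134), Igfbp2 (0.607 ± 0.184) and Igf2 (0.0026 ± 0.0059), each as mean and SD of 5 libraries. The ranges of Igf2r and Igf1 overlapped, as did those of Igf1r and Igfbp2, and the other neighbours in this order did not overlap. Binding protein RNA exceeded Igf1 RNA in every library, with a ratio of the summed 6 binding proteins to Igf1, in CPM per kb, between 103 and 182 in control and between 106 and 162 in KO cultures. The size of this ratio depends on merged exon length, which is 9904 bases for Igf1 and 1112 bases for Igfbp6. Without scaling by length, Igfbp6 averaged 392 CPM and Igf1 42.4 CPM in control.

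The 6 binding proteins summed to 604, 652, 702, 544 and 698 CPM per kb in control libraries 1 to 5 and to 523, 499, 575, 539 and 540.1 CPM per kb in KO libraries 1 to 5. Control library 4 was the lowest control and lay in the KO range, and the other 4 control libraries were above all 5 KO libraries. Igfbp6 made up 47.0% to 60.3% of this sum in control and 43.8% to 55.9% in KO cultures. The share of Igfbp4 was 5.36% to 6.57% in control and 7.13% to 7.87% in KO libraries, and that of Igfbp2 was 0.069% to 0.131% in control and 0.138% to 0.199% in KO libraries, without overlap in either case. In CPM, Igfbp4 and Igfbp2 each overlapped between the groups. The share of Igfbp5 overlapped, at 1.08% to 1.37% in control and 0.907% to 1.10% in KO cultures, through KO 1 alone, since KO 2 to 5 lay between 0.907% and 1.05%. Shares of a sum are tied to each other, and they are given as a description without a test.

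Within groups, deviations from the group mean were compared on the log2 scale. Of the 9 tested genes, 6 deviated from their group mean in the same direction in control 4 and KO 1. Igf1, Igf1r and Igfbp3 were highest in control 4 among control and in KO 1 among KO libraries, whereas Igfbp4 and Igfbp6 were lowest in those libraries. Igfbp5 deviated by -0.06 in control 4 and by 0.13 in KO 1 on the log2 scale, and its deviations stayed within -0.10 and 0.13 over all 10 libraries.

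Over the 10 libraries, deviations from the group means of log2 CPM were most alike for Igfbp4 and Igfbp6 among 36 pairs of members (Pearson r = 0.93, Spearman rho = 0.89, and r = 0.79 without control 4 and KO 1). They were most opposed for Igf2r and Igfbp6 (Pearson r = -0.92, Spearman rho = -0.89, and r = -0.85 without these libraries). The pair Igf1 and Igfbp3 had r = 0.81, and 0.62 without them. Without control 4 and KO 1, Igf1 with Igfbp7 (r = 0.82, and 0.56 over 10 libraries) and Igfbp3 with Igfbp7 (r = 0.815, and 0.52 over 10 libraries) stood above Igfbp4 with Igfbp6, while Igf2r and Igfbp6 were still the most opposed pair. These values describe 10 libraries that share their depth scaling, and they carry no p.

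**Figure D3:**
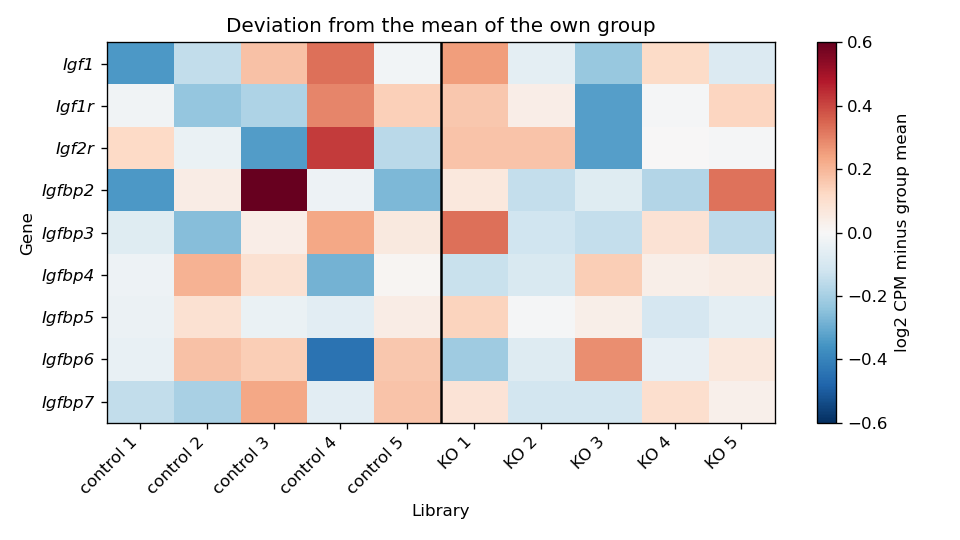
Deviation of log2 CPM from the mean of the own group for the 9 tested IGF genes (rows) in each library (columns), with red above and blue below the group mean. Igf2r at 0.42 and Igfbp6 at -0.44 in control 4 lie at opposite ends of that column, and Igfbp5 has the narrowest range of the 9 rows.

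Outside the family, the genes whose deviations were most like each member were named among 12907 genes whose mean log2 CPM was 0 or more. For Igfbp5 they were 9130008F23Rik (Pearson r = 0.92), Tgds (0.92) and Zscan20 (0.92). For Igfbp6 they were Saraf (0.98), Eci1 (0.97) and Osr1 (0.97), for Igfbp2 Ccdc9b (0.90), Tmed10-ps (0.90) and Sap30l (0.89), and for Igfbp7 Pcolce (0.96), Mfap5 (0.96) and Pibf1 (0.95). For Igfbp3 they were Gpnmb (0.98), Slc44a2 (0.97) and Apbb1ip (0.97), and for Igfbp4 Actl6a (0.97), AI606473 (0.97) and Fcgrt (0.96). Igf1 was most like Pdlim1 (0.96), Prkaca (0.95) and Dpysl3 (0.94), Igf1r most like Sipa1l2 (0.96), and Igf2r most like Pals1 (0.98), Eif4g3 (0.98) and Chd2 (0.98). Over the 3 highest genes of each member, 27 in all and not all of them named, Spearman's rho ran from 0.78 to 0.99 and r without control 4 and KO 1 from 0.86 to 0.97. Each of these genes was picked as among the highest of 12907 over 10 libraries, and the values carry no p.

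Among 13 genes for IGF carriers, IGFBP proteases and their inhibitors, 9 were tested and 0 passed the limit in edgeR, and 0 passed with DESeq2 or limma voom. At an unadjusted p under 0.05 there were 0 in edgeR, 0 in DESeq2 and 2 in limma voom, beside 1697 of all 14270 genes in edgeR. Their median log2 fold change was 0.02, beside -0.00085 over all genes tested. The smallest p-values belonged to Stc2, an inhibitor of PAPP-A, averaging 35.1 ± 5.17 CPM for control and 39.2 ± 3.29 CPM for KO (SD, n = 5 each), and to Pappa itself, with 5.67 ± 1.09 and 6.83 ± 1.40 CPM (SD, n = 5). Lrp1, the most abundant gene of the list and a receptor reported to bind IGFBP3, averaged 406 ± 123 CPM for control and 392 ± 93.9 CPM for KO (SD, n = 5 each). Igfbp1, Igfbpl1 and Adam28 had 0 counts in every library, and Pappa2 was too low to test.

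Growth hormone is the main inducer of Igf1 in many tissues, through its receptor, JAK2 and STAT5. All 6 genes of this list were tested and 0 passed in edgeR, DESeq2 or limma voom, with 0 at an unadjusted p under 0.05 and a median log2 fold change of -0.02. Ghr averaged 287 ± 7.10 CPM for control and 278 ± 13.8 CPM for KO (SD, n = 5 each), and the STAT5 target Socs2 had 12.7 ± 0.934 and 11.8 ± 0.920 CPM (SD, n = 5).

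Of 10 genes that share the Igf2 locus, bind Igf2 mRNA or take part in lysosomal sorting, 8 were tested and 0 passed in edgeR, DESeq2 or limma voom, with 0 at an unadjusted p under 0.05 and a median log2 fold change of -0.04. H19, the imprinted noncoding RNA 72.6 kb from Igf2, was detected well above Igf2. It was counted at 31.0, 15.6, 34.1, 64.1 and 30.1 CPM in control 1 to 5, compared with 51.3, 25.99, 17.0, 26.2 and 21.6 CPM in KO 1 to 5. Its highest values were those of control 4 and KO 1, and the groups overlapped (log2 fold change -0.30, SE 0.342, edgeR adjusted p = 0.835). The estimate for H19 was 0.044 without control 4, -0.49 without control 2, -0.61 without KO 1 and -0.15 without KO 3. M6pr, which encodes the second mannose phosphate receptor, averaged 151 ± 1.31 CPM for control and 150.2 ± 4.58 CPM for KO, and Nagpa, an enzyme that completes the mannose phosphate tag, had 18.4 ± 1.77 and 17.5 ± 1.55 CPM (SD, n = 5).

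Downstream of the IGF1 and insulin receptors, 28 of 30 signalling genes were tested and 0 passed in edgeR, DESeq2 or limma voom. At an unadjusted p under 0.05 there were 0 in edgeR, 1 in DESeq2 and 3 in limma voom, beside 1697 of all 14270 genes in edgeR. The median log2 fold change was 0.02, with 12 genes lower and 16 higher. Irs1, an adaptor of both receptors, averaged 54.7 ± 3.96 CPM for control and 48.8 ± 5.38 CPM for KO (SD, n = 5 each), a log2 fold change of -0.16 (SE 0.076, edgeR adjusted p = 0.430). Akt2, the kinase gene with the highest mean CPM of the list, averaged 332 ± 10.3 CPM for control and 349 ± 11.4 CPM for KO (SD, n = 5 each), a log2 fold change of 0.07 (SE 0.037, edgeR adjusted p = 0.473). Insrr and Irs4 were too low to test.

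A list of 9 genes for secreted proteins that carry an IGFBP-type domain outside the family held the 2 genes of these pathway lists that passed. Of 8 tested, 2 were lower and 0 higher, with a median log2 fold change of -0.06. Esm1, which encodes a proteoglycan of endothelial cells, was counted at 2.94, 2.70, 4.00, 4.64 and 3.38 CPM in control 1 to 5, compared with 1.59, 1.19, 0.786, 0.687 and 0.662 CPM in KO 1 to 5. The groups did not overlap, and Esm1 fell by 1.84 on the log2 scale (SE 0.241, edgeR adjusted p = 0.00112). Esm1 overlaps Gzmk on the opposite strand. Ccn2, which encodes connective tissue growth factor, was counted at 16.7, 14.6, 23.7, 24.6 and 21.6 CPM in control 1 to 5, compared with 14.9, 12.2, 11.4, 10.9 and 12.2 CPM in KO 1 to 5. Ccn2 overlaps Gm15270 on the opposite strand. KO library 1 was just above control library 2, and the log2 fold change was -0.72 (SE 0.141, edgeR adjusted p = 0.0177). Ccn2 no longer passed when control 3 (edgeR adjusted p = 0.0518), control 5 (0.0522), KO 2 (0.0567), KO 4 (0.0559) or KO 5 (0.0562) was left out, so that 1 gene of the list was then called. Its log2 fold change in these fits was -0.65, -0.69, -0.70, -0.67 and -0.71, in the same order. Over all alternatives its adjusted p ran from 0.00012 to 0.0656. Ccn1, the most abundant gene of this list, averaged 165 ± 15.9 CPM for control and 152 ± 11.8 CPM for KO (SD, n = 5 each), and Igfbpl1 had 0 counts.

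Most endothelial markers, and part of the progenitor and fibroblast markers, were lower in KO cultures in the same libraries. Of 15 endothelial markers, 13 were lower and 0 higher in KO cultures in edgeR, with a median log2 fold change of -1.27. Their summed level was 187, 199.8, 225, 231 and 223 CPM in control 1 to 5, compared with 120.1, 94.3, 98.0, 82.2 and 89.6 CPM in KO 1 to 5, and the most abundant, Cdh5, fell from 53.1 ± 5.11 to 22.1 ± 3.67 CPM (SD, n = 5). Of 11 adipose progenitor and fibroblast markers, 5 were lower and 0 higher, with a median of -0.38, and their sum was 5585, 5068, 6541, 5345 and 6059 CPM in control and 4760.1, 4207, 4329, 5007 and 4412 CPM in KO libraries. Without control 5, KO 2 or KO 5, 3 of these 11 passed. Col3a1, the most abundant of these, averaged 2629.9 ± 388 CPM for control and 1896 ± 167 CPM for KO (SD, n = 5 each). None of these endothelial, progenitor and fibroblast markers was at 0. What part these cells had in the lower Igfbp5 was not tested, and in bulk RNA fewer cells of a type and less RNA per cell cannot be told apart.

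Pericyte and smooth muscle markers (10 genes, 9 tested) had 0 calls in edgeR, DESeq2 and limma voom, with 5, 5 and 4 genes at an unadjusted p under 0.05 in these tools and a median log2 fold change of -0.35. In edgeR, 1697 of all 14270 genes tested were at an unadjusted p under 0.05, and such counts for the other tools are not given here. None of the 9 pericyte and smooth muscle markers tested passed with 1 library left out in edgeR. Rgs5 was too low to test with 10 libraries (3 to 22 counts). It was tested and lower without control 1 (edgeR adjusted p = 0.0313) and without KO 3 (0.0349). Without KO 1, KO 2, KO 4 or KO 5, its edgeR adjusted p ran from 0.0609 to 0.130. The pericyte and smooth muscle markers summed to 196, 186, 226, 245 and 223 CPM in control and 203, 194, 149, 199.8 and 194 CPM in KO libraries, with Pdgfrb as the most abundant (91.5 ± 10.4 and 86.6 ± 10.5 CPM, SD, n = 5). Of 10 macrophage markers, 1 was lower and 0 higher (Cd163, log2 fold change -0.55, edgeR adjusted p = 0.00773), with a median of -0.04, and their sum was 1862, 1501, 2171, 1500.1 and 1411 CPM in control and 2033, 1332, 2042, 1898 and 1233 CPM in KO libraries, most of it Lyz2. Of 11 adipocyte markers, 0 passed in edgeR and 2 passed, as higher, in DESeq2 and 1 in limma voom, with 4 at an unadjusted p under 0.05 in edgeR and a median of 0.07. Without control 4, 1 of them passed in edgeR. Their sum was 32142, 31994.5, 31938, 31740.1 and 32672 CPM in control and 34738, 34684, 35514, 33487 and 33533 CPM in KO libraries, mostly Fabp4 (20805 ± 357 and 22552 ± 945 CPM, SD, n = 5). No adipocyte, pericyte or macrophage marker of these lists was at 0, and leptin was low, Lep averaging 1.06 ± 0.479 CPM for control and 0.845 ± 0.270 CPM for KO (SD, n = 5 each). The part of these cells in the other IGF genes was not tested.

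Promoter sequences are shown for Igfbp5, the member that passed, and for its neighbour Igfbp2, whose estimate had the opposite sign. They are also shown for Igfbp4, whose share of the binding protein sum did not overlap between the groups. In CPM, Igfbp4 overlapped between the groups and did not pass the limit (edgeR adjusted p = 0.572). All 10 members have an entry in RefSeq (14 entries, GRCm38.p6), and the 250 bases before each start were searched on both strands for a TATA box spelled TATAAA, which 12.4% of 32851 promoter windows of the same length held. A second spelling, TATTTAA, was held by 4.18% of these windows. The GC box GGGCGG was held by 32.7% and the E-box CANNTG by 66.2% of them. None of these spellings contains another. Capitals mark the TATA and GC boxes, not the E-box. Igfbp5 (chr1:72874866-72875115, minus strand) held TATTTAA once, from -51 to -45 of the RefSeq start, and had 58.8% G and C. This start lies 19 bases inside the gene as GENCODE M21 bounds it, so the window overlaps the gene there, and the start of Igfbp2 lies 23 bases before the GENCODE one. Igfbp2 (chr1:72824230-72824479, plus strand, the first of 2 entries) held GGGCGG 3 times and neither of the TATA spellings, with 67.2% G and C. Igfbp4 (chr11:99040994-99041243, plus strand) held TATAAA once, from -28 to -23, with 69.2% G and C, beside a median of 52.4% over all windows. Each of the 3 windows held the E-box once. A match describes these letters and is not evidence of binding.
Igfbp5: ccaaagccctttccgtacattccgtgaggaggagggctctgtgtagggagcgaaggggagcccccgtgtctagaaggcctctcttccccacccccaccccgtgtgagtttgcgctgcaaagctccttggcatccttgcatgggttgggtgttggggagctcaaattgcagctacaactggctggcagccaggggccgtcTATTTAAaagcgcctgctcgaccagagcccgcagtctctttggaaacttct
Igfbp2: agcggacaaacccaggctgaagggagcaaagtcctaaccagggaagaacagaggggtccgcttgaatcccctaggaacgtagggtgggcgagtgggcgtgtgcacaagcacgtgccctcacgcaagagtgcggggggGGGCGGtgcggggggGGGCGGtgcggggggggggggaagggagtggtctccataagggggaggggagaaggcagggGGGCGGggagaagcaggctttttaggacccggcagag
Igfbp4: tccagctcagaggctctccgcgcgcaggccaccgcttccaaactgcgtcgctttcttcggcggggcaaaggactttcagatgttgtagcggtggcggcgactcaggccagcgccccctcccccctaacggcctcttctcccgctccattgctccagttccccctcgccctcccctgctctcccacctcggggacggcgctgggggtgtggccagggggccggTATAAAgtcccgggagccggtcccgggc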

How the data were processed

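The authors prepared SMARTer mRNA libraries, mapped paired-end reads to GRCm38.p6 (mm10 per the labels) with STAR, assigned them to Ensembl genes with featureCounts, and deposited raw counts for 56748 genes and 10 libraries, not normalized. The strand setting is not given in the sources used here. Each column carries the name of 1 library.

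Low genes were removed with edgeR 4.0.16 under R 4.3.3 (filterByExpr, minimum count 10), libraries were scaled by TMM, and KO was tested against control without pairing (quasi-likelihood F-test, Benjamini-Hochberg adjustment over 14270 genes, limit 0.05). Log2 CPM used a prior count of 2, and a standard error is the size of the estimate over the root of its F statistic. The DESeq2 test that the methods name was run as an alternative. Positions and merged exon lengths come from GENCODE M21, which holds 52073 of the 56748 gene identifiers. Exact permutation tests used scipy 1.17.1. The code was tested on simulated data. At 18949106 to 26237825 counts per library, counting error is larger for genes of low CPM such as Igfbp2. Libraries of a group differed by more than sampling noise (smallest ratio of chi-square to degrees of freedom 3.54), so no library was a copy of another of its own group.

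The members and gene lists were chosen with earlier results of these data known. The genes named are Fam20c, the 10 members, genes of each list past the limit (or else the 2 with the smallest p) and its most abundant gene, the most abundant gene and the genes at 0 of each marker list, and, with some left out of the text, the 3 genes most alike to each tested member by Pearson r of deviations from group means (among genes of mean log2 CPM 0 or more). Airn, Insr, Lep, Cd163, Igfbp1, Rgs5 and genes too low to test were named after their values were seen. Alternatives were DESeq2 1.42.0, median-of-ratios and upper-quartile scaling, no filter, a filter of 1 CPM in 5 libraries, limma 3.58.1 voom with quality weights, a replicate block, each library left out in turn, and control 4 and KO 1 left out together.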

Additional observations from a re-analysis of the deposited data

Results flagged for a closer look

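In 6 of 58 groups of 5 libraries, 1 library lay far from the other 4, its gap to the nearest divided by the range of the group passing Dixon's limit. For independent groups of normally distributed values, chance gives about 1 in 20, or 2.9 of 58. The groups here share the same 10 libraries, so 6 and 2.9 cannot be compared directly. KO 1 was far above the other KO libraries for Stc2 (44.9 against 36.8 to 38.6 CPM, ratio 0.773), H19 (51.3 against 17.0 to 26.2 CPM, ratio 0.732) and Ccn1 (173 against 143 to 149.8 CPM, ratio 0.766). KO 4 was above the others for Nagpa (20.2 against 16.5 to 17.1 CPM, ratio 0.836). Control 3 was below the others for Insr (115 against 154 to 169 CPM, ratio 0.732). KO 3 was below the others for the summed pericyte and smooth muscle markers (149 against 194 to 203 CPM, ratio 0.834). No tested member of the IGF family and not Fam20c had such a library.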

How the results depend on the processing

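Igfbp5 and Fam20c kept their direction and their side of the limit in every alternative run, with log2 fold changes of -0.62 to -0.54 and -0.54 to -0.43. Igfbp6 passed the limit with DESeq2 (-0.40), without a filter (-0.40), with limma voom (-0.44) and without control 4 and KO 1 (-0.44), and with 1 library left out its log2 fold change ran from -0.49 to -0.35, past the limit without control 4, so that 2 members were called in each of these fits and 1 or 2 with a library left out. Igf1 changed sign with limma voom (0.032) and ran from -0.11 to 0.057 with a library left out, Igf2r ran from -0.065 to 0.13 and H19 from -0.61 to 0.044, and the cause was not tested. Calls over all genes ran from 164 (without KO 2) to 323 (without control 4) lower and from 19 (without control 5) to 119 (without control 4) higher with a library left out. Higher calls were 125 with DESeq2 (and 359 lower), 111 with limma voom (347 lower) and 145 without control 4 and KO 1 (353 lower), against 44 and 265. Pathway genes called lower were 1 or 2 with a library left out. Progenitor and fibroblast markers called lower were 3 to 5 with a library left out, and pericyte markers 0 or 1 (Rgs5, not tested with 10 libraries). Adipocyte markers called higher were 2 with DESeq2, 1 with limma voom, 1 without control 4 and KO 1, and 0 or 1 with a library left out. No pairing by the replicate numbers shared by the groups was evident, though the labels do not say how these numbers were given. Deviations of same-numbered libraries correlated at -0.17, 0.09, 0.26, -0.25 and 0.03, and not every library was most like its own number. A replicate block gave 193 lower and 21 higher genes, 1 pathway gene lower (Ccn2 then had -0.70, edgeR adjusted p = 0.0656) and 1 member called, Igfbp5. Other causes were not tested. Among the members, Igf2 and Igfbp2 had the fewest counts.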
